A study of Homo sapiens with 4 samples.

Results

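The genes described here encode enzymes that make ceramide, cut it to sphingosine and phosphorylate sphingosine. The set held 10 genes: the ceramide synthase genes CERS2, CERS4, CERS5 and CERS6, the ceramidase genes ACER1, ACER2, ACER3 and ASAH1, and the sphingosine kinase genes SPHK1 and SPHK2. They were chosen by symbol among probe sets with exactly 1 annotated gene symbol, with the brightest probe set taken for each gene, and 9 of the 10 were measured this way, among 18417 genes in all. SPHK2 was not matched to a probe set and was not analysed here. RNA levels were read on whole-transcript Affymetrix arrays. The cells were H1299, derived from a human lung cancer of the non-small cell type and without p53 of their own, into which mouse p53 under tet-on control had been stably introduced. The 2 induced arrays came from cells of this line that were kept for 24 hours with doxycycline at 0.5 µg/mL, which turns the mouse gene on. The 2 uninduced arrays came from the same line before induction, so both groups carry the construct. The labels call the 2 arrays of a group technical replicates, so p-values measure only the spread between arrays, which may be technical, and with so few arrays the precision is limited. No doxycycline-treated line without the construct was analysed here, so the drug and p53 cannot be told apart. The uninduced arrays are from 0 hours and none is from untreated cells at 24 hours, so time in culture cannot be told apart from induction either.

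Ceramide is the central lipid of the sphingolipid pathway. Ceramide synthases join a fatty acid to a sphingoid base, each enzyme preferring certain chain lengths, and ceramidases remove that fatty acid again to leave sphingosine. Sphingosine kinases turn sphingosine into sphingosine 1-phosphate, a signalling lipid generally linked to survival and growth, whereas ceramide and sphingosine are generally linked to growth arrest and cell death. ACER2 is known as a direct transcriptional target of p53, and p53 activation after DNA damage is known to lead to loss of the sphingosine kinase 1 protein. The values below are RNA levels and say nothing of protein or lipid amounts.

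The alkaline ceramidase paralogs ACER1 and ACER3 were measured beside ACER2, and the 3 genes differed in their response, so the stretches before their starts are shown for comparison. Each is the 250 bases before the RefSeq start in GRCh38.p14, 5′ to 3′ on the gene's strand, with GGGCGG on either strand in capitals. The ACER1 stretch lies at chr19:6333613-6333862 on the minus strand, that of ACER2 at chr9:19408759-19409008 on the plus strand and that of ACER3 at chr11:76860668-76860917 on the plus strand.
ACER1: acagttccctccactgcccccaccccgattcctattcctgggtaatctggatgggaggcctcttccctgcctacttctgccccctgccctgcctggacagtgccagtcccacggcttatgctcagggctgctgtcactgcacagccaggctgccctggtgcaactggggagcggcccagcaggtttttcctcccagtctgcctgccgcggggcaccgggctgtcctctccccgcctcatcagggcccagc
ACER2: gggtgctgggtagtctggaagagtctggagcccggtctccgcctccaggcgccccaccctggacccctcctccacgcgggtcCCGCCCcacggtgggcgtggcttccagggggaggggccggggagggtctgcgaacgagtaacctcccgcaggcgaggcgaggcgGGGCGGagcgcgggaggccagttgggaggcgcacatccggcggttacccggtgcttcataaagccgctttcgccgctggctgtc
ACER3: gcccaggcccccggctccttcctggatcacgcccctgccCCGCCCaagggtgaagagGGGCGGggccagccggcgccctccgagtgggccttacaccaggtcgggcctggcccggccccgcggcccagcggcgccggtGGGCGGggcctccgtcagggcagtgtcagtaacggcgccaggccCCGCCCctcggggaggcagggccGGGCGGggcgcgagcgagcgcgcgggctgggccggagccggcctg
GGGCGG, the core of a GC box, occurred 0 times before ACER1, 2 times before ACER2 and 5 times before ACER3. It was found in 42.6% of 35116 RefSeq promoter stretches of the same length. The GC content was 66.0%, 72.4% and 81.2% in the same order of genes, against a median of 58.0% over all these stretches. The p53 half-site consensus, searched on both strands, had no match in these 3 stretches, and 5.6% of all stretches held one. CCAAT had no match in them on either strand either, and 32.0% of all stretches held it. Of the 9 measured genes, 6 had an entry in the promoter table. CERS5 and CERS6 had no p53 half-site match, and of the 3 listed starts of SPHK1, 1 had a match. A match is a match of letters only. A missing match speaks only for the exact consensus in these 250 bases, and sites elsewhere were not searched.

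The label check came first. CDKN1A, the p21 cell cycle inhibitor and a p53 target, had 12.63 and 12.50 log2 units on the induced arrays, against 9.16 and 9.11 on the uninduced arrays. MDM2, the ubiquitin ligase that degrades p53, had 12.70 and 12.76 on the induced arrays, against 9.84 and 9.85 on the uninduced arrays. Both genes were higher on each induced array than on any uninduced array, in the direction that the labels give. In limma's test, used throughout at an adjusted p under 0.05, 45.1% of all genes passed, the share to set beside the marker counts here. Of 6 epithelial markers 1 passed. KRT8, a keratin gene, rose 2.21-fold (10.45 and 10.81 induced, 9.41 and 9.56 uninduced, limma adjusted p = 0.000241). Its partner KRT18 was at 11.10 and 10.98 induced and 11.10 and 11.17 uninduced, and the adhesion genes CDH1 and EPCAM lay between 5.39 and 5.94 on all 4 arrays. KRT7 was lower, at 7.74 and 7.49 induced and 7.91 and 7.92 uninduced (limma adjusted p = 0.0506). KRT19 was at 6.89 and 6.62 induced and 6.84 and 6.67 uninduced. Of 4 mesenchymal markers 3 passed: VIM, a filament gene, fell by 0.40 on the log2 scale (12.35 and 12.29 induced, 12.69 and 12.75 uninduced), CDH2 fell by 0.345 and FN1 rose by 0.305. The summed linear level was 4030 to 4199 on the induced arrays and 3336 to 3503 on the uninduced arrays for the epithelial list, and 7088 to 7185 induced and 8845 to 9199 uninduced for the mesenchymal list. The bright genes KRT8 and KRT18 weigh most in the epithelial sum, and only KRT8 rose, so that sum shows no rise of the list as a whole. VIM weighs most in the mesenchymal sum. CDH2 also fell, but FN1 rose and ZEB1 did not pass, so the mesenchymal sum shows no fall of the whole list. The part of these markers in the results below was not tested. Of other cells' markers, 1 of 4 for blood passed, 0 of 7 for fibroblasts and endothelium (0 at an unadjusted p under 0.05) and 0 of 7 for epidermis (1 at an unadjusted p under 0.05) in limma's test. The epidermal list holds genes of differentiated layers and the basal keratin genes KRT5 and KRT14, of which KRT14 was the brightest of the list. The summed linear level of the 7 epidermal markers was 704 to 765 on the induced arrays and 682 to 722 on the uninduced arrays.

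After induction 3 of the 9 measured enzyme genes were higher and 3 were lower at an adjusted p under 0.05 (limma's moderated test, Benjamini-Hochberg over all genes), and 3 did not pass. ACER2, the Golgi ceramidase gene, rose 5.37-fold and CERS4, a ceramide synthase gene, rose 2.78-fold. The genes of the very-long-chain synthase CERS2, of lysosomal acid ceramidase (ASAH1) and of SPHK1 fell by 0.49, 0.62 and 0.465 on the log2 scale. Over all genes 45.1% passed the same test, with 20.6% of all genes higher and 24.6% lower, so passing it was common. It was more common still among brighter genes. Dim genes were those with a mean level over all 4 arrays below the 40th percentile. Without them 68% of all genes passed, against 6 of the 8 enzyme genes that remained. Such a mean can keep a gene through its high group, and CERS4, counted among the 6, stayed in this way. Its uninduced values, 6.79 and 6.80, were close to those of ACER1, which was left out. The other comparisons with all genes in this paragraph include the dim ones. At least 2-fold changes with an adjusted p under 0.05 were seen for 2 of the 9 enzyme genes and for 13.2% of all genes. The induced and uninduced values did not overlap for 8 of the 9 enzyme genes, against 66.8% of all genes. The median log2 fold change was 0.01 over the 9 genes and 0.00 over all genes, while the median size without sign was 0.465 and 0.23.

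**Figure D1:**
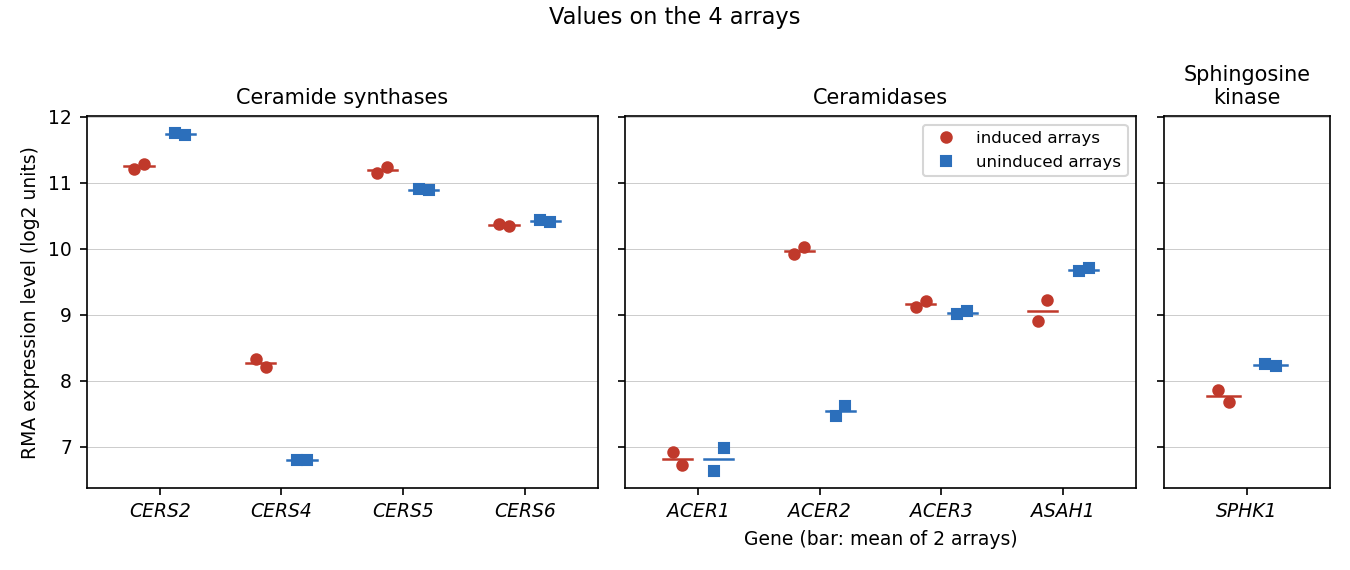
RMA expression level in log2 units (vertical axis) of the 9 measured genes, by enzyme class. Red circles are the 2 induced arrays and blue squares the 2 uninduced arrays of each gene, with a bar at their mean. ACER2 and CERS4 stand clearly higher on the induced arrays, at 9.92 and 10.02 for ACER2 and 8.33 and 8.21 for CERS4. The ACER1 values of the 2 groups overlap. Heights of different genes come from different probes and are not comparable.

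Ceramide synthase genes moved in different directions. CERS4, which prefers long acyl chains, was at 8.33 and 8.21 log2 units on the induced arrays, against 6.79 and 6.80 on the uninduced arrays (probe set 8025382). The groups did not overlap, and the gap between them was many times the spread within either. Its means were 8.27 ± 0.0849 induced and 6.795 ± 0.00707 uninduced (SD, n = 2 arrays each), a log2 fold change of 1.475 with an SE of 0.0866 and a limma adjusted p of 8.55e-06. The uninduced level of CERS4 was close to that of the dim gene ACER1 (mean 6.805), and no detection call was used. Expression of CERS4 before induction was therefore not established. CERS5, whose product is mainly palmitoyl ceramide, was at 11.15 and 11.23 on the induced arrays, against 10.90 and 10.89 on the uninduced arrays (probe set 7963174). Both induced values were above both uninduced ones, by a small margin. The log2 fold change of CERS5 was 0.295 (SE 0.0834, limma adjusted p = 0.0223), or 1.23-fold.

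CERS2, the synthase of very-long-chain ceramides, was at 11.21 and 11.29 log2 units on the induced arrays, against 11.75 and 11.73 on the uninduced arrays (probe set 7919856). Both induced values were below both uninduced values. The gene fell by 0.49 on the log2 scale (SE 0.0835, limma adjusted p = 0.00197). CERS6, which like CERS5 makes palmitoyl ceramide, was at 10.38 and 10.34 on the induced arrays, against 10.44 and 10.40 on the uninduced arrays (probe set 8046086). The induced values were the lower pair, by less than the test could separate. Its log2 fold change of -0.06 had a 95% interval from -0.25 to 0.13 and an adjusted p of 0.623 in limma's test. The interval of CERS4, from 1.27 to 1.68, lay above those of CERS5 (0.10 to 0.49), CERS6 and CERS2 (-0.69 to -0.29).

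Among the ceramidase genes ACER2 was the only one of the 4 that rose. ACER2, which acts in the Golgi and yields sphingosine, was at 9.92 and 10.02 log2 units on the induced arrays, against 7.47 and 7.62 on the uninduced arrays (probe set 8154563). The 2 groups were far apart compared with the spread inside each. Its means were 9.97 ± 0.0707 induced and 7.545 ± 0.106 uninduced (SD, n = 2 arrays each), a log2 fold change of 2.425 with an SE of 0.0936 and a limma adjusted p of 1.51e-06. Of the 18417 genes, 149 had a larger rise. ACER3, an alkaline ceramidase of the endoplasmic reticulum and Golgi, was at 9.11 and 9.21 on the induced arrays, against 9.01 and 9.05 on the uninduced arrays (probe set 7942679). Its induced values were slightly above the uninduced ones, with a log2 fold change of 0.13 (95% interval -0.07 to 0.33, limma adjusted p = 0.279).

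ACER1, an alkaline ceramidase best known from the epidermis, was at 6.91 and 6.72 log2 units on the induced arrays, against 6.63 and 6.98 on the uninduced arrays (probe set 8033151). The groups overlapped, and the uninduced arrays differed from each other more than the group means did. The log2 fold change of ACER1 was 0.01 (95% interval -0.30 to 0.32, limma adjusted p = 0.965). Its mean level was under the 40th percentile of all genes and no detection call was used, so expression of ACER1 was not established. The interval of ACER2, from 2.21 to 2.64, lay above those of both paralogs whose starts are shown above. ASAH1, the acid ceramidase of lysosomes, was at 8.90 and 9.22 on the induced arrays, against 9.66 and 9.70 on the uninduced arrays (probe set 8149534). Both induced values were lower, although the induced arrays differed from each other more than for any other member, with an SD of 0.226. ASAH1 fell by 0.62 on the log2 scale (SE 0.117, limma adjusted p = 0.00335).

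SPHK1, the kinase that phosphorylates sphingosine, was at 7.86 and 7.68 log2 units on the induced arrays, against 8.25 and 8.22 on the uninduced arrays (probe set 8010061). Both induced values were below both uninduced ones. SPHK1 fell by 0.465 on the log2 scale (SE 0.0939, limma adjusted p = 0.00467), with means of 7.77 ± 0.127 induced and 8.235 ± 0.0212 uninduced (SD, n = 2 arrays each). Each of the 9 genes had 1 such probe set, so no second probe set was at hand to compare. In RNA from whole cultures, fewer cells with a transcript and less of it per cell cannot be told apart.

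**Figure D2:**
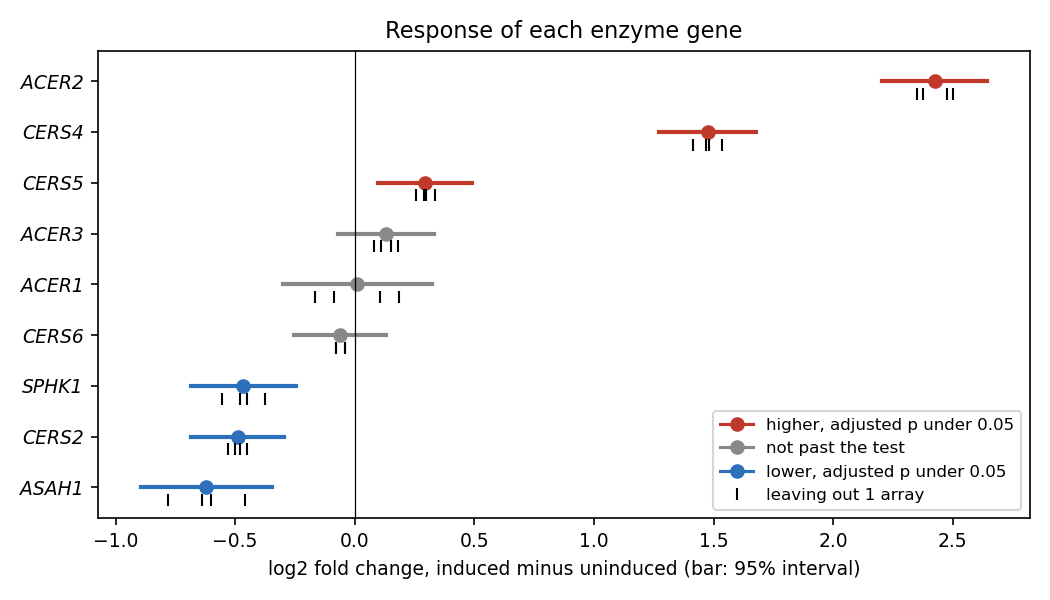
The log2 fold change of each gene, induced minus uninduced (horizontal axis), with limma's 95% interval as a bar. Red is higher and blue lower at an adjusted p under 0.05, grey did not pass, and black ticks give the value with 1 array left out. The intervals of ACER2 (2.21 to 2.64) and CERS4 (1.27 to 1.68) lie apart from all the others.

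Leaving out single arrays ended the calls of the smaller changes and not those of the 2 large rises. ACER2 kept a log2 fold change between 2.35 and 2.50 and CERS4 one between 1.415 and 1.535 whichever array was left out, with limma adjusted p-values from 0.00912 to 0.0129. Without uninduced array 1 the calls of CERS2, CERS5, ASAH1 and SPHK1 ended (adjusted p = 0.0561, 0.138, 0.100 and 0.101). Without uninduced array 2 the same 4 calls ended (adjusted p = 0.0527, 0.149, 0.114 and 0.0896), and that of CERS5 also ended without induced array 2 (0.0606). Their log2 fold changes moved little without either uninduced array, to -0.48 and -0.50 for CERS2, 0.30 and 0.29 for CERS5, -0.64 and -0.60 for ASAH1 and -0.45 and -0.48 for SPHK1. Leaving out an induced array gave a wider range, from -0.78 to -0.46 for ASAH1 and from -0.555 to -0.375 for SPHK1. The share of all genes called was 27.4% without uninduced array 1 and 26.9% without uninduced array 2. In these fits a single uninduced array is assumed to vary like the induced ones.

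**Figure D3:**
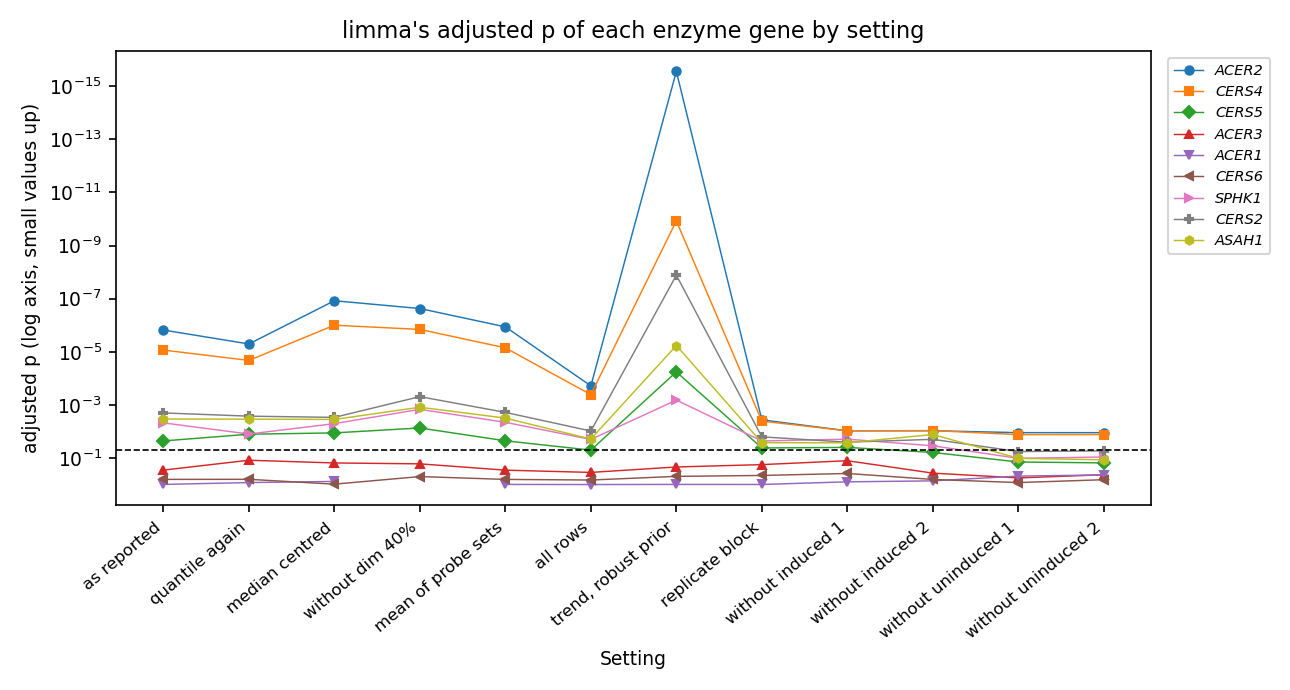
The limma adjusted p (vertical log axis, small values up) of each gene under each setting, from the values as reported at the left to the fits without 1 array at the right, with the dashed line at 0.05. ACER2 and CERS4 stay above the line throughout. CERS2, CERS5, ASAH1 and SPHK1 drop below it without either uninduced array. ACER1 has no point without dim probe sets because it was left out there.

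The 3 genes whose profiles over the 4 arrays lay nearest to that of ACER2, each centred on its uninduced mean and measured by Euclidean distance, were HSDL2, ZNF654 and MARCHF8. HSDL2, a gene of the hydroxysteroid dehydrogenase-like family, was at 10.28 and 10.42 log2 units on the induced arrays, against 7.86 and 8.03 on the uninduced arrays (distance 0.0424). ZNF654, a zinc finger gene, was at 9.91 and 10.02 induced, against 7.42 and 7.60 uninduced (distance 0.0480). MARCHF8, a membrane ubiquitin ligase gene, was at 11.34 and 11.48 induced, against 8.94 and 9.09 uninduced (distance 0.0510). With 4 arrays in 2 groups this likeness mostly reflects a similar fold change.

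Other sphingolipid genes were taken from 8 lists by role. Of 69 listed, 60 were measured, of which 16 were higher after induction, 24 lower and 20 not past the test, with a median log2 fold change of -0.02. Over all genes 45.1% passed, with 20.6% higher and 24.6% lower, shares against which each list below is to be read. Without dim probe sets 37 of 47 of these sphingolipid genes passed, against 68% of all genes. Some stayed in through the higher group alone, as SMPDL3B did with its induced values and S1PR1 with its uninduced ones. In the list of sphingoid base and dihydroceramide synthesis, 2 of 11 measured genes were higher, 4 lower and 5 not past the test. ORMDL2, a gene of the ORM family that restrains serine palmitoyltransferase, rose 2.01-fold (11.68 and 11.75 log2 units induced, 10.73 and 10.69 uninduced), and SPTSSA, a small subunit of that enzyme, rose 1.99-fold (SE 0.107 on the log2 scale). DEGS1, the desaturase that turns dihydroceramide into ceramide, fell by 1.245 on the log2 scale (SE 0.111), at 8.68 and 8.95 induced, against 10.01 and 10.11 uninduced. SPTLC2, a catalytic subunit of serine palmitoyltransferase, ORMDL1 and ORMDL3 were also lower, with log2 fold changes of -0.91, -0.69 and -0.38. CERS3, the epidermal ceramide synthase gene, differed by 0.11 on the log2 scale (SE 0.117, limma adjusted p = 0.517). SPTSSA and CERS3 here, and S1PR4 and NAAA below, had mean levels under the 40th percentile of all genes, as ACER1 did. So did CERKL and ST8SIA1, which are counted among the called genes. Expression of these genes was likewise not established.

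Genes of ceramide kinase, lipid transfer, and sphingomyelin synthesis and hydrolysis moved in both directions. All 6 measured genes of ceramide kinase and lipid transfer passed the test, against 45.1% of all genes, with 4 higher and 2 lower. PLEKHA8, a glycolipid transfer gene, rose 2.97-fold (9.77 and 9.72 log2 units induced, 8.29 and 8.06 uninduced), and CERK, ceramide kinase, rose 1.32-fold. CERT1, which carries ceramide from the endoplasmic reticulum to the Golgi for sphingomyelin synthesis, fell by 1.07 (SE 0.114). Of 9 genes of sphingomyelin synthesis and hydrolysis, 2 were higher and 5 lower, against 20.6% and 24.6% of all genes. SGMS1, the Golgi sphingomyelin synthase gene, rose 3.13-fold (10.56 and 10.70 induced, 8.91 and 9.06 uninduced), whereas SGMS2, the synthase gene of the plasma membrane, fell by 1.075 (7.15 and 7.51 induced, 8.31 and 8.50 uninduced). SMPDL3B, a membrane phosphodiesterase gene related to acid sphingomyelinase, rose 3.02-fold. The call of CERK ended without either uninduced array (adjusted p = 0.0786 and 0.0726), and that of SGMS2 without uninduced array 2 (0.0529).

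Of 9 genes of glycosphingolipid synthesis, 0 were higher in limma's test (1 at an unadjusted p under 0.05) and 6 lower, with a median log2 fold change of -0.96. Over all genes 20.6% were higher and 24.6% lower. UGT8, which makes galactosylceramide, fell by 2.09 (SE 0.0900), at 7.33 and 7.47 log2 units on the induced arrays, against 9.52 and 9.46 on the uninduced arrays. B4GALT5, a lactosylceramide synthase gene, fell by 1.455 (SE 0.0825), and UGCG, glucosylceramide synthase, fell by 1.19 (SE 0.0923). The induced values of these 3 genes lay below all their uninduced values. Of 10 genes of glycosphingolipid breakdown, 5 were higher, 2 lower and 3 not past the test, with a median of 0.27. The same shares of all genes, 20.6% higher and 24.6% lower, apply to this list. HEXA, a lysosomal hexosaminidase subunit, rose 1.90-fold and ARSA, arylsulfatase A, rose 1.53-fold. GLA, the alpha-galactosidase gene, fell by 2.045 (7.91 and 8.03 induced, 10.04 and 9.99 uninduced). The call of ARSA ended without induced array 2 (adjusted p = 0.0540) and without uninduced array 2 (0.0610).

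**Figure D4:**
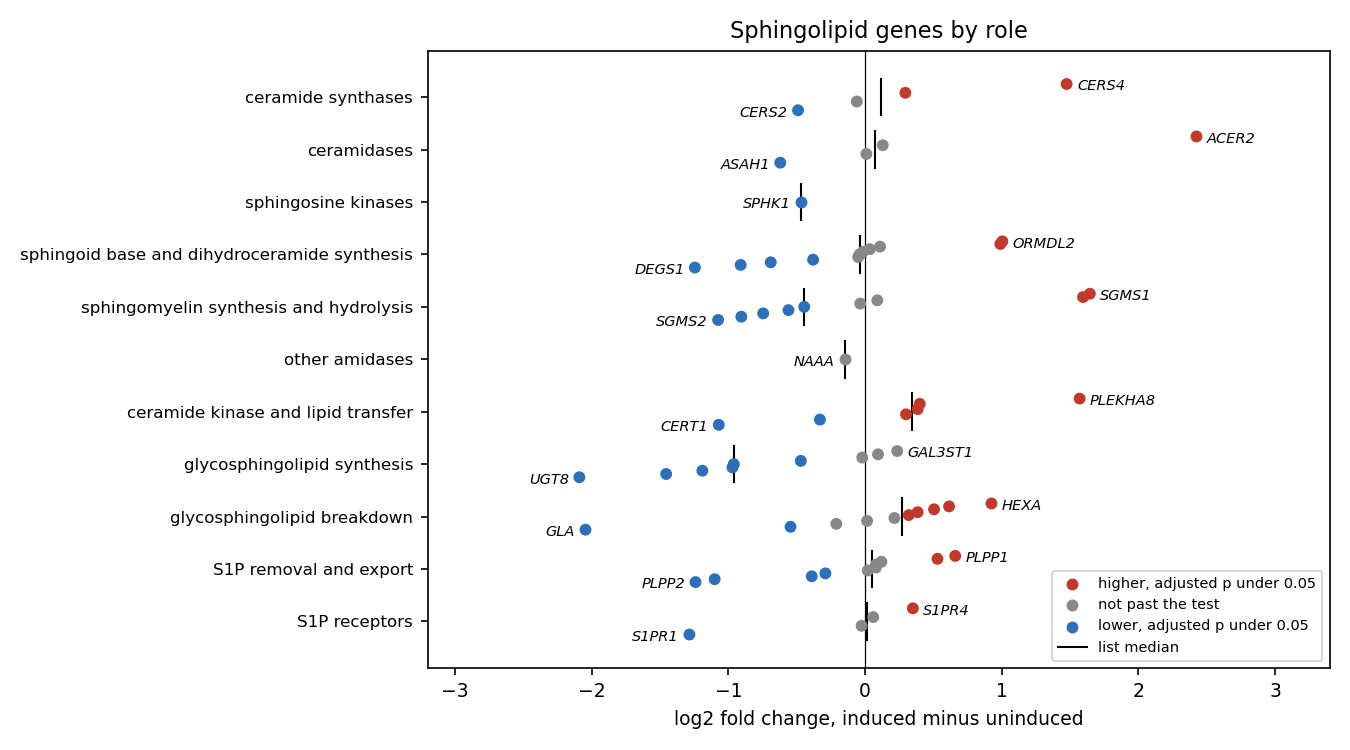
The log2 fold change, induced minus uninduced (horizontal axis), of each measured sphingolipid gene by role, with S1P for sphingosine 1-phosphate. Each point is a gene, red higher and blue lower at an adjusted p under 0.05 and grey not past the test; black lines are list medians, and the lowest and highest gene of each list are named. ACER2, at 2.425, is the highest point shown, and UGT8, at -2.09, the lowest.

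Downstream of sphingosine kinase, 2 of 10 genes of sphingosine 1-phosphate removal and export were higher, 4 lower and 4 not past the test. Over all genes 45.1% passed, with 20.6% higher and 24.6% lower. SGPL1, the lyase that degrades sphingosine 1-phosphate irreversibly, fell by 1.10 (SE 0.131), at 7.90 and 8.27 log2 units on the induced arrays, against 9.12 and 9.25 on the uninduced arrays. PLPP2, a lipid phosphate phosphatase gene, fell by 1.24, whereas its relative PLPP1 rose 1.58-fold. SPNS2, a sphingosine 1-phosphate exporter gene, differed by 0.53 on the log2 scale, and the phosphatase gene SGPP1 and the aldehyde dehydrogenase gene ALDH3A2 had ones of -0.29 and -0.39, all past the test. The call of PLPP1 ended without uninduced array 2 (adjusted p = 0.0513). Of 4 measured receptors of sphingosine 1-phosphate, S1PR1 fell by 1.285 (SE 0.0950), at 7.07 and 6.88 induced, against 8.27 and 8.25 uninduced. S1PR4 rose by 0.35 on the log2 scale (limma adjusted p = 0.0286), a call that ended whichever array was left out (0.0851 to 0.266). S1PR2 and S1PR5 did not pass, with log2 fold changes of -0.03 and 0.06. NAAA, an amidase gene related to acid ceramidase and the only measured gene of its list, showed a log2 difference of -0.145 (SE 0.0882, limma adjusted p = 0.241).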

How the data were processed

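Biotin-labelled single-stranded cDNA was made from total RNA, per the labels' protocols. The authors deposited log2 expression levels made with Affymetrix Expression Console and RMA, per the submitters' processing notes; versions, settings and build were not stated there. Because RMA gives the probe intensities of all arrays 1 distribution before summarizing them, a shift shared by all transcripts cannot be seen. RMA also compresses the fold changes of dim genes. The deposited values still differed slightly between arrays, with medians of 7.29 and 7.26 log2 units on the induced arrays and 7.33 and 7.32 on the uninduced arrays.

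Of 33297 probe sets, 19460 had 1 gene symbol in the platform annotation, 1754 several and 12083 none. Symbols were updated by gene ID through the RefSeq table of GRCh38.p14 (19429 matched), and the brightest probe set represented a gene. limma 3.58.1 in R 4.3.3 was fitted to induced against uninduced arrays (lmFit, eBayes, no covariate, two-sided, Benjamini-Hochberg over 18417 genes, 2 residual and 7.20 total degrees of freedom). SEs and 95% intervals are limma's. Across genes, r was 0.995 between the induced arrays and 0.997 between the uninduced arrays, against 0.917 to 0.921 between groups (genes are not independent replicates). The fit was tested on simulated data.

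The genes described and the lists were chosen with earlier results of these data known. Genes named by rule were all members, MDM2 and CDKN1A, the 3 largest absolute changes of each other sphingolipid list and the 3 nearest profiles to the member with the largest change; marker genes and other list members were named after their values were seen. Motifs were searched in RefSeq promoter sequences of GRCh38.p14. Alternatives were quantile normalization again, median centring, leaving out dim probe sets (under the 40th percentile), averaging probe sets, all rows, an intensity trend with a robust prior, the replicate number as a block and leaving out each array. Figures used Python 3.11.15 with matplotlib 3.10.9.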

Additional observations from a re-analysis of the deposited data

Results flagged for a closer look

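Signals appeared in probe sets with several annotated symbols, at least 1 of them a sphingolipid gene of the lists, which the comparisons above do not use and which are therefore given by number. Probe set 7927599 has the symbols ASAH2B and ASAH2, which were listed with NAAA. It was at 9.39 and 9.39 log2 units on the induced arrays, against 9.0 and 8.91 on the uninduced arrays, a log2 fold change of 0.435 (adjusted p = 0.0146 in limma's fit over all rows). Probe set 8156278 was at 6.92 and 6.89 induced, against 6.55 and 6.41 uninduced, a log2 fold change of 0.425 (adjusted p = 0.0208 in the same limma fit). In that fit probe sets 8045301 and 7960553 were lower, with log2 fold changes of -0.515 (adjusted p = 0.0109) and -0.35 (adjusted p = 0.0251). Probe sets 7933341 and 7933597, with the same symbols as 7927599, had ones of 0.225 and 0.25 and did not pass (adjusted p = 0.0994 and 0.0911), and 8035539 had one of -0.06 (adjusted p = 0.721).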

How the results depend on the processing

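Of 98 values of the 9 enzyme genes under the alternatives, 89 kept their side of the threshold and 9 lost the call, all for CERS2, CERS5, ASAH1 or SPHK1 with 1 array left out; none that was called changed direction. The number of enzyme genes called was 6 as reported and lay between 2 and 6 with 1 array left out. The other sphingolipid genes called numbered 40 as reported and 22 to 35 with 1 array left out, and all genes called numbered 8311 as reported and 4959 to 6904. With the replicate number as a block, 6 enzyme genes, 36 other sphingolipid genes and 7820 genes were called; deviations of same-numbered arrays correlated at 0.225, and the labels do not say that a number marks a shared preparation. Of the other genes named by rule, 282 values kept their side and 12 lost the call, of SGMS2, CERK, ARSA, PLPP1 or S1PR4, whose call also ended with the block (adjusted p = 0.119) and over all rows (0.0745). The cause of the lost calls was not tested. The share of all calls that were higher was 45.6% as reported, 50.2% after quantile normalization again and 51.1% after median centring. Genes named outside the rule were not followed singly.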
